A study of Rattus norvegicus with 2 samples.

Results

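The interleukin-1 family and its receptors were followed through the cell classes of neonatal rat hearts with and without lipopolysaccharide (LPS), a component of the outer membrane of gram-negative bacteria. The 8 genes were taken by symbol from the 25399 genes listed for the libraries: the ligands *Il1a* (ENSRNOG00000004575), *Il1b* (ENSRNOG00000004649) and *Il33* (ENSRNOG00000016456), the receptor antagonist *Il1rn* (ENSRNOG00000005871), and the receptor chains *Il1r1* (ENSRNOG00000014504), *Il1r2* (ENSRNOG00000014378), *Il1rap* (ENSRNOG00000001928) and *Il1rl1* (ENSRNOG00000014835). All 8 were found in both libraries. Both groups were heart cells of Sprague-Dawley rats aged 1 to 3 days, of both sexes pooled, which had passed a Percoll gradient that enriches intrinsic cardiac adrenergic (ICA) cells and were then kept for 2 h with saline (control) or with 1 µg/mL LPS. Each condition is a single library of pooled animals. The labels call both samples ICA cells, yet cluster 0, named fibroblast by the authors, made up 57.2% of the cells in the control and 55.4% with LPS, and 156 of 836 control cells and 121 of 929 LPS cells of cluster 3 (ICA and cardiomyocyte) had a UMI of *Dbh*, the enzyme that makes noradrenaline.

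The authors' 11 clusters were used as cell classes. Clusters 0, 1 and 7 carried the name fibroblast, clusters 4 and 5 endothelial and cluster 6 macrophages, while clusters 2, 8, 9 and 10 were left uncommented. The control library held 152624585 and the LPS library 127580475 counts of unique molecular identifiers (UMIs), and the median UMIs per cell of cluster 6 were 8846 and 6900. Levels are given as CPM, the UMIs of a gene in a whole cluster per 1000000 UMIs of the cluster. The 3′ libraries count transcripts at their end, so levels were not divided by gene length. Capture may differ between genes and was not measured, so comparisons between genes are of UMIs and not of true transcript numbers. Membrane and soluble forms of a receptor cannot be told apart. Brackets give 95% intervals, which cover counting error only. With 1 library per condition no test was made, and a difference between conditions cannot be told apart from one between the libraries. The libraries shared 194 cell barcodes, of which 3 control and 8 LPS barcodes were macrophages. Leaving out all shared barcodes kept 70 of 70 log2 ratios of single genes within their intervals.

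IL-1α and IL-1β bind the receptor IL-1R1, which then recruits the accessory chain encoded by *Il1rap* and starts the MyD88 and IRAK cascade that leads to NF-κB. The antagonist encoded by *Il1rn* occupies IL-1R1 without signaling, and IL-1R2 binds the ligands without a signaling domain and acts as a decoy. IL-33, a nuclear alarmin of stromal and endothelial cells, signals through ST2, the product of *Il1rl1*, together with the same accessory chain, and IL-33 and ST2 are known in the heart from fibroblasts and from myocardial stress.

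*Il1a* and *Il1b* are next to each other on rat chromosome 3 in the RefSeq annotation of assembly GRCr8, and *Il1rn* is on the same chromosome beside *Il1f10*. On chromosome 9, *Il1r2*, *Il1r1* and *Il1rl1* lie near each other in a stretch that also holds the receptor genes *Il1rl2*, *Il18r1* and *Il18rap*, with *H3f3al3* between *Il1r2* and *Il1r1*. The promoters of *Il1a*, *Il1b* and *Il1rn* are shown, since macrophages held most of the transcripts of each in the LPS library and the first and second were higher with LPS there while *Il1rn* was not. Each RefSeq window runs from 250 bases before to 50 after the start of transcription, in the 5′ to 3′ direction of the gene, and capitals mark matches to the motifs named after the sequences. The *Il1a* window is chr3:136989968-136990267 (minus strand), the *Il1b* window chr3:137036532-137036831 (minus strand) and the *Il1rn* window chr3:27520072-27520371 (plus strand), all in GRCr8.
Il1a: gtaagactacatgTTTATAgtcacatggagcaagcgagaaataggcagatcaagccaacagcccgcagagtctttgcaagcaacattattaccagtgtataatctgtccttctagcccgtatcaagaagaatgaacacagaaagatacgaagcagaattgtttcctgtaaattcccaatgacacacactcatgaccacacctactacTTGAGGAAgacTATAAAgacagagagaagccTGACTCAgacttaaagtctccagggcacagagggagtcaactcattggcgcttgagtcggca
Il1b: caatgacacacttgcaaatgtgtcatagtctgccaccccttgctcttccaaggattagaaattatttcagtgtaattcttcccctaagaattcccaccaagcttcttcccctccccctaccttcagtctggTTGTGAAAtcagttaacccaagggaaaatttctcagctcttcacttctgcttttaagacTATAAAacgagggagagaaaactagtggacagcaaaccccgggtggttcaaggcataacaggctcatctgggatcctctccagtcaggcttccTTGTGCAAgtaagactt
Il1rn: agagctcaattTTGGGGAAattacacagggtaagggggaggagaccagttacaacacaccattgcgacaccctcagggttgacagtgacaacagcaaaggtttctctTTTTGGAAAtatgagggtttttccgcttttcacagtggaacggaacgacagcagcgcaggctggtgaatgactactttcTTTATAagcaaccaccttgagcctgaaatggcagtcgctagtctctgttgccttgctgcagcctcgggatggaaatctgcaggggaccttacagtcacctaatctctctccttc
Of the 8 genes, 7 matched a RefSeq promoter entry, and *Il1r2* did not. The motifs were searched on both strands: the PU.1 core GAGGAA, which 27.6% of 33469 rat promoter windows hold, the C/EBP motif TTNNGNAA (41.3%), the AP-1 motif TGANTCA (7.33%), the TATA box TATAAA (14.2%) and the NF-kappaB consensus (7.51%). The *Il1a* window had a PU.1 core at -41 inside a C/EBP match at -43, a TATA box at -32 and an AP-1 match at -12 from the start, besides a TATA box on the other strand at -237. The *Il1b* window had C/EBP matches at -119 and 33 and a TATA box at -60. In the *Il1rn* window the C/EBP matches were at -239, -143 and -142, of which the last pair overlap, and a TATA box lay on the other strand at -64. The NF-kappaB letters were in none of these 3 windows, while the window of *Il1r1* held them at -135. The windows of *Il1rap* overlap and share the same match, at -85 or -166 depending on the start of transcription.

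**Figure D1:**
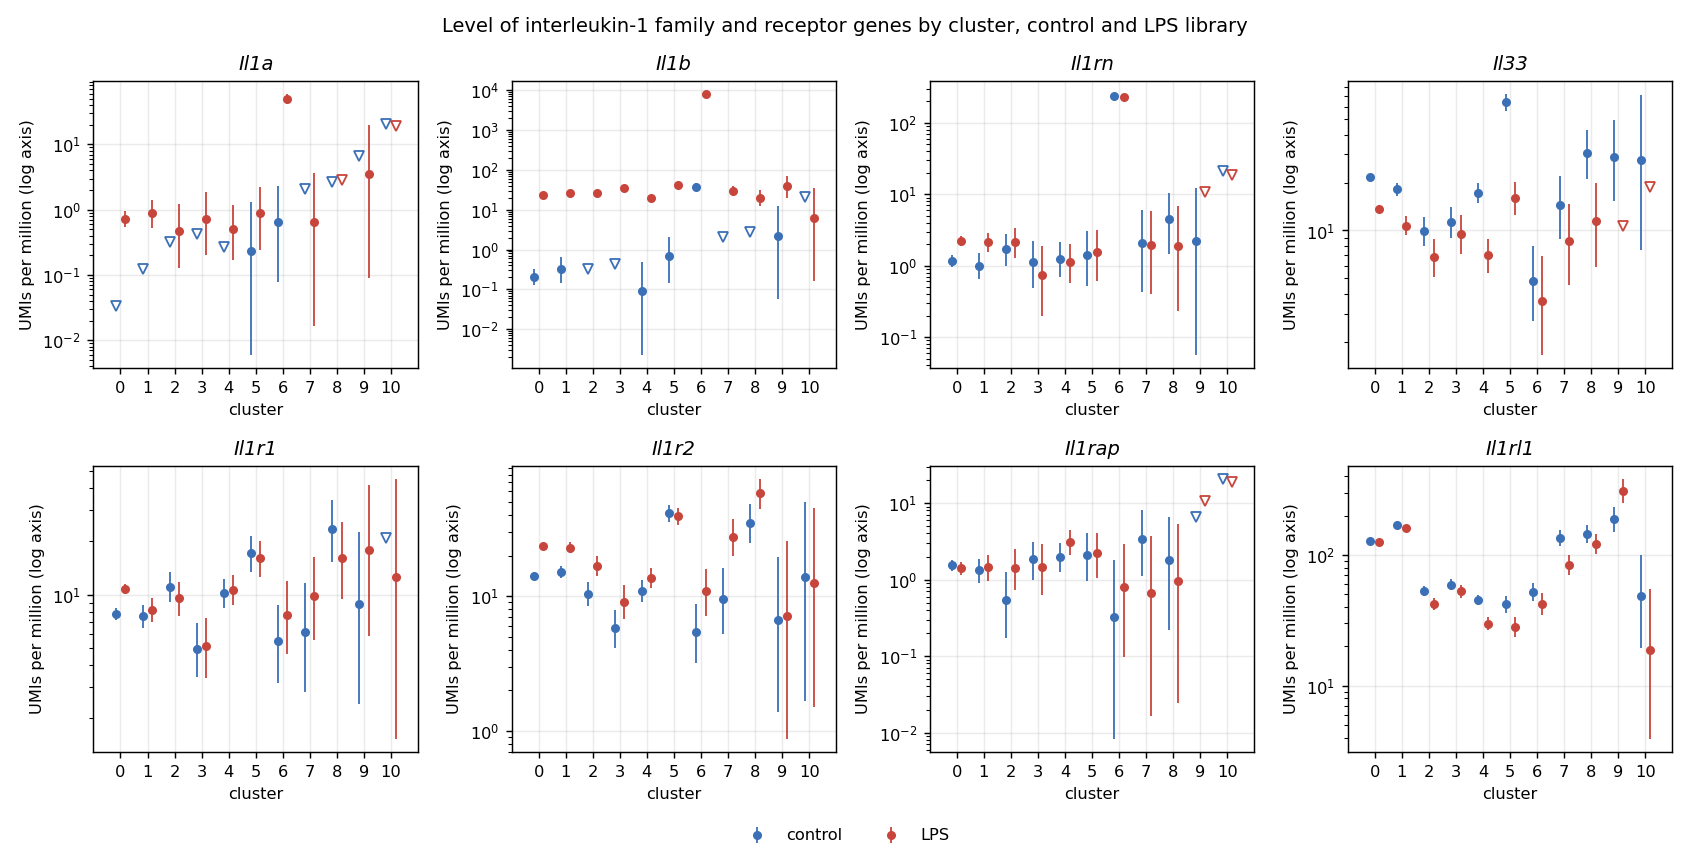
Level of each of the 8 genes (UMIs per 1000000 UMIs of the cluster, log axis, scale differs between panels) in clusters 0 to 10 of the control (blue) and LPS (red) library; lines are 95% Poisson intervals and open triangles mark the limit of 3 UMIs where none was counted. *Il1b* in cluster 6 went from 38.2 to 7919 CPM between the libraries, *Il1rn* stayed at 234.7 and 233.3 CPM there, and *Il33* was lower with LPS in cluster 5.

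Past a 2-fold ratio of CPM, the family split into a few large differences and many small ones. In macrophages (cluster 6), *Il1b* and *Il1a* were past 2-fold higher with LPS among the 7 members with at least 20 UMIs, and none was past 2-fold lower, while of 8401 genes with as many UMIs 4.7% were higher and 15.7% lower by that rule. In cluster 0 all 8 members had 20 UMIs and the same pair was past 2-fold higher, against 3.62% of 13447 genes higher and 11.2% lower. In cluster 1, *Il1b* and *Il1rn* of 7 members were past it (3.37% of all genes higher, 7.34% lower), and in cluster 7 *Il1b* and *Il1r2* of 5 (4.78% and 6.68%). *Il1b* alone was past it in clusters 2 (1 of 6 members, 3.01% and 6.66% of all genes) and 3 (1 of 6, 2.2% and 3.08%). In the endothelial clusters and cluster 8, *Il1b* was past 2-fold higher and *Il33* past 2-fold lower: among 7 members in cluster 4 (2.95% of all genes higher, 6.27% lower), 5 in cluster 5 (4.74% and 6.48%) and 5 in cluster 8 (3.32% and 4.07%). In cluster 9 only *Il1rl1* had 20 UMIs and it stayed within 2-fold (5.04% of all genes higher, 4.73% lower), and in cluster 10 no member had 20. *Il1a* in clusters 0 and 6, *Il1b* outside cluster 6 and *Il1r2* in cluster 7 reached 20 UMIs only through the LPS library. Their being past 2-fold higher is thus not independent of that minimum. *Il33* in cluster 8 reached it only through the control library, so its being past 2-fold lower is not independent of it either. The median log2 ratio of the members tested was 0.48 in cluster 6 and 0.60 in cluster 0, and that of all genes tested was -0.34 and -0.15. The median gene thus took a smaller share of the UMIs in the LPS macrophages. In clusters 1, 2, 4 and 7 the members' medians were 0.12, 0.05, 0.07 and 0.65, against -0.08, -0.14, -0.10 and -0.06 for all genes. In clusters 3, 5 and 8 they were lower than those of all genes, at -0.05, -0.10 and -0.27 against -0.01, -0.07 and -0.02. The members' medians include genes that reached the minimum through 1 library only. Dividing by median-of-ratios size factors or TMM factors would move each log2 ratio of cluster 6 up by 0.35 or 0.32.

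Of the ligands, *Il1b* had by far the most UMIs after LPS, and most of them were in macrophages. Cluster 6 held 86.3% (85.8 to 86.7) of the 22816 *Il1b* UMIs of the LPS library and 78.8% (71.4 to 85.0) of the 151 of the control library, although it made up 2.29% and 2.44% of the cells. Nearly every LPS macrophage held some. With 3000 UMIs drawn from every cell, so that depth was equal, *Il1b* had a UMI in 281 of 290 LPS macrophages, with a median of 20 UMIs per cell, quartiles of 7 and 44 and a highest value of 189. At least 10 UMIs were counted in 205 of these cells, and the 29 cells with the most held 29.2% of the UMIs. The spread between single macrophages was therefore wide, but the transcripts did not sit in a small group of cells. In the control, 26 of 281 macrophages had a UMI after thinning, and 1 cell accounted for 29 of the 119 UMIs counted without thinning (24.4%). For comparison, cells of cluster 3 (ICA and cardiomyocyte) had an *Il1b* UMI in 0 of 836 control and 9.61% (7.79 to 11.7) of 926 LPS cells after thinning. Their median depth was 7526 and 5269 UMIs, and that of macrophages 8846 and 6900. Without thinning the shares were 17.4% and 97.9% in macrophages and 0 and 16.9% in cluster 3.

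**Figure D2:**
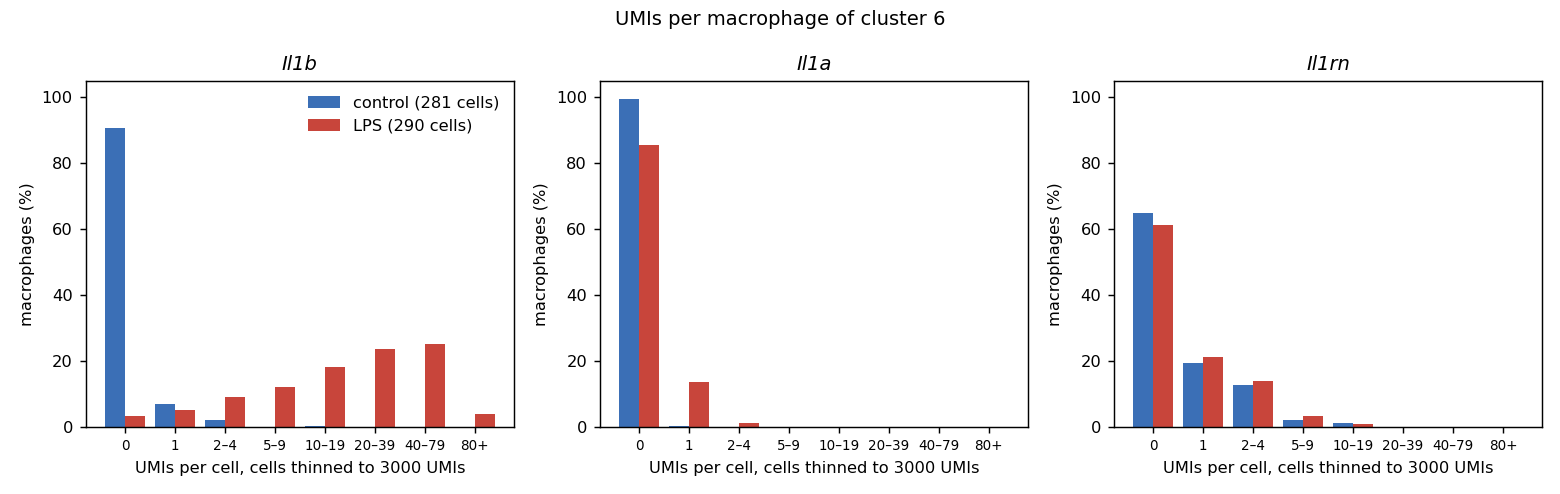
Share of the macrophages of cluster 6 (%) by UMIs per cell of *Il1b*, *Il1a* and *Il1rn* after thinning to 3000 UMIs, in 281 control (blue) and 290 LPS (red) cells. For *Il1b* most control cells are at 0 and the LPS cells spread from 0 to 189 with a median of 20, whereas the *Il1rn* bars of both libraries lie close together.

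*Il1b* was also higher with LPS in every other cluster with enough UMIs, 9 of 9 with cluster 6. Outside cluster 6 the control held at most 19 of its UMIs per cluster, so these clusters had enough only through the LPS library. The count of clusters is therefore not independent of the minimum. In cluster 0 *Il1b* went from 19 to 1733 UMIs, or 0.210 (0.126 to 0.328) to 23.5 CPM (22.4 to 24.6), a ratio of 112 (71.4 to 186). Cluster 1 went from 8 to 518 UMIs with a ratio of 77.2 (38.9 to 179.8), and cluster 5 from 3 to 192 UMIs with a ratio of 59.8 (20.1 to 292). In cluster 4 a single control UMI stood against 195, a ratio of 223 (39.5 to 8847). Clusters 2, 3, 7 and 8 had no *Il1b* UMI in the control and 218, 195, 46 and 21 in the LPS library. Read against the limit of 3 UMIs that a count of 0 allows, *Il1b* was at least 81.0-fold, 84.0-fold, 14.7-fold and 7.41-fold higher with LPS in these clusters. The exact lower limits of the ratios, which also take in the counting error of the LPS sums, were 65.3, 67.6, 11.502 and 5.51. The levels outside macrophages were 23.5 CPM in cluster 0, 35.6 CPM (30.8 to 40.9) in cluster 3 and at most 42.2 CPM (36.4 to 48.6), in cluster 5. The intervals of clusters 3 and 5 lay above that of cluster 0. In order of level, cluster 6 stood 188-fold (163 to 218) above cluster 5, whereas each following pair of neighbours, down to clusters 1 and 0, did not differ beyond its interval. Cluster 0 was 1.17-fold (1.01 to 1.37) above cluster 4, the next in order.

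Outside macrophages the *Il1b* level of the LPS library was below 1% of the macrophage level in clusters 0 to 5, 7 and 8. It was 0.297% (0.282 to 0.312) of the cluster 6 level in cluster 0, 0.253% (0.219 to 0.291) in cluster 4, 0.449% (0.388 to 0.517) in cluster 3 and 0.533% (0.460 to 0.614) in cluster 5. The 10 macrophage markers (*Cd68*, *Msr1*, *Adgre1*, *Csf1r*, *C1qa*, *C1qb*, *C1qc*, *Mrc1*, *Lyz2* and *Fcgr1a*), summed, stood at 0.487% (0.447 to 0.530) in cluster 0, 0.633% in cluster 4, 0.499% in cluster 3 and 1.55% in cluster 5. In clusters 0 to 5, 7 and 8 the *Il1b* percentage was below that of the summed markers, with intervals that overlap in clusters 2, 3, 7 and 8, and in cluster 0 it was within the range of the single markers, from 0.204% for *Lyz2* to 1.01% for *Csf1r*. The markers were detected outside cluster 6 in both libraries, at summed levels between 14.4 and 46.4 CPM in the control clusters 0 to 5, 7 and 8 and between 5.71 and 27.2 CPM with LPS, against 2412 and 1754 CPM in macrophages. In cluster 5, *Mrc1*, which some endothelial cells also express, stood at 16.5% of its macrophage level. The part of free RNA or of macrophage fragments in the *Il1b* of the other clusters was not tested.

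Counts per cell outside macrophages were low. In cluster 0, 1480 of 7030 LPS cells had an *Il1b* UMI, 28 had at least 3, the highest had 9, and 73.6% of the UMIs were in cells with a single one. A few droplets stood apart. In cluster 5, 1 LPS cell held 64 of the 192 UMIs (33.3%), and in cluster 3, 1 LPS cell held 22 of 195. Cells with 3 or more macrophage marker UMIs were 4 in cluster 5, 1 in cluster 3 and 5 of 7030 in cluster 0 of the LPS library. Without them the *Il1b* level fell to 0.464% of that of macrophages in cluster 5 and 0.399% in cluster 3, and was 0.297% in cluster 0. Leaving out so few cells could hardly move the cluster 0 value, and it does not remove free RNA.

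**Figure D3:**
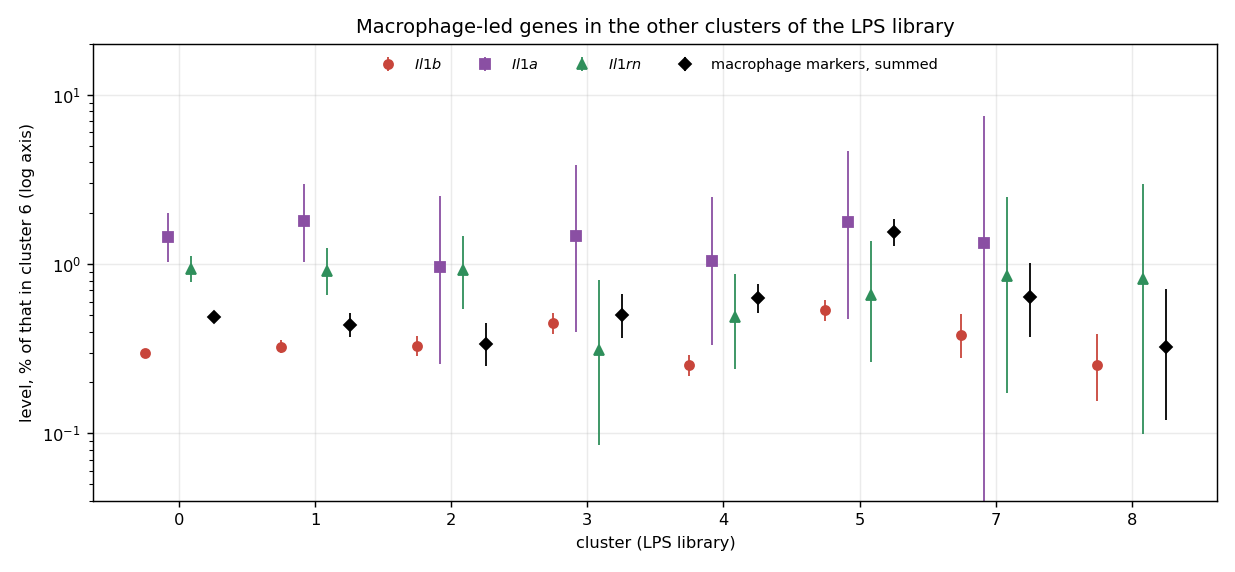
Level of *Il1b*, *Il1a*, *Il1rn* and the 10 summed macrophage markers in clusters 0 to 5, 7 and 8 of the LPS library, as a percentage of the level in cluster 6 (log axis), with 95% counting intervals. *Il1b* lies between 0.253% and 0.533%, near or below the summed markers, and in clusters 0 and 1 *Il1a* (1.45% and 1.81%) and *Il1rn* (0.941% and 0.915%) lie above the summed markers.

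*Il1a*, the ligand that is active already as a precursor and can act from the nucleus or the cell surface, was scarce. The control library held 3 UMIs of it in all, 2 of them in macrophages, and the LPS library 213. In cluster 6 its level was 0.642 CPM (0.0778 to 2.32) in the control and 49.5 CPM (41.1 to 59.0) with LPS, a ratio of 77.1 (20.9 to 643). LPS macrophages held 0.625 (0.519 to 0.746) *Il1a* UMIs per 100 of *Il1b*, so the neighbouring genes differed widely in UMIs in the same cells. After thinning, 42 of 290 LPS macrophages had an *Il1a* UMI (14.5%, 10.6 to 19.1), against 1 of 281 in the control and 1 of 926 LPS cells of cluster 3. Unthinned, the shares were 33.7% and 0.712% in macrophages. The 42 LPS macrophages with an *Il1a* UMI had a median of 44.5 *Il1b* UMIs (quartiles 21.5 and 63) at equal depth, and the 248 without had 18 (7 and 38.25). Macrophages with the one transcript thus held more of the other, although detection of so scarce a gene depends on each cell's own content.

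Macrophages held a smaller part of *Il1a* than of *Il1b*. Of the 213 UMIs in the LPS library, 57.7% (50.8 to 64.5) were in cluster 6 and 33.8% (27.5 to 40.6) in the fibroblast clusters 0, 1 and 7, where *Il1b* had 10.1% (9.68 to 10.5). Cluster 0 went from 0 to 53 UMIs, each in a different cell, or to 0.719 CPM (0.538 to 0.940), at least 21.7-fold higher against the limit of 3 UMIs (exact lower limit of the ratio 17.02), and cluster 1 from 0 to 18 UMIs. Relative to macrophages the LPS level was 1.45% (1.03 to 2.02) in cluster 0 and 1.81% (1.04 to 2.98) in cluster 1, above the summed macrophage markers there (0.487% and 0.439%). Of the 10 single markers the highest were *Csf1r* at 1.01% (0.613 to 1.61) in cluster 0 and *Mrc1* at 1.52% (0.877 to 2.49) in cluster 1. The *Il1a* values were above these, with intervals that overlap. Leaving out cells with 3 or more macrophage marker UMIs gave 1.45% in cluster 0. This took out 5 of 7030 LPS cells, so it could hardly move the value, and it does not remove free RNA. *Il1a* per 100 *Il1b* UMIs was 3.06 (2.28 to 4.02) in cluster 0, against 0.625 in macrophages.

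The antagonist gene *Il1rn* was also highest in macrophages, but its level there did not differ between the libraries beyond counting error. Cluster 6 had 731 control and 580 LPS UMIs, or 234.7 CPM (218 to 252) and 233.3 CPM (215 to 253), a ratio of 0.994 (0.890 to 1.11). The log2 ratio of -0.01 becomes 0.34 with median-of-ratios size factors and 0.31 with TMM factors. After thinning, 35.2% (29.7 to 41.1) of control and 38.6% (33.0 to 44.5) of LPS macrophages had a UMI, 59.8% and 57.4% without thinning, and in cluster 3 the thinned shares were 0.239% and 0.108%. Since *Il1b* differed so much, the UMI ratio of the pair turned over: macrophages held 614 (505 to 752) *Il1rn* UMIs per 100 of *Il1b* in the control and 2.95 (2.71 to 3.20) with LPS. The 112 LPS macrophages with an *Il1rn* UMI had a median of 17 *Il1b* UMIs (quartiles 6.75 and 43.25) and the 178 without had 23 (8 and 45), with quartiles that overlap almost wholly.

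In fibroblast clusters 0 and 1, where *Il1rn* was low, it was higher with LPS. Cluster 0 went from 106 to 162 UMIs and from 1.17 (0.959 to 1.42) to 2.196 CPM (1.87 to 2.56), a ratio of 1.88 (1.46 to 2.42), and cluster 1 from 24 to 43 UMIs, a ratio of 2.14 (1.27 to 3.68). On thinned cells the log2 ratio of cluster 0 was 0.22 instead of 0.90. That of cluster 1, 1.08, lay between 0.64 and 1.18 with other ways of processing, so it was not past 2-fold in all of them. Clusters 2 and 4, with 16 to 18 and 14 to 11 UMIs, had ratios whose intervals held 1. The cluster 0 level was 0.499% (0.403 to 0.612) of the macrophage level in the control, where the summed macrophage markers stood at 0.665%, and 0.941% (0.786 to 1.12) with LPS, where they stood at 0.487%. Both values were within the range of the single markers, 0.410% to 1.35% in the control and 0.204% to 1.01% with LPS. The part of macrophage RNA in these values of *Il1a* and *Il1rn* was not tested either. Cluster 6 held 79.98% (77.2 to 82.5) of the *Il1rn* UMIs of the control library and 69.9% (66.6 to 73.0) of those of the LPS library.

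**Figure D4:**
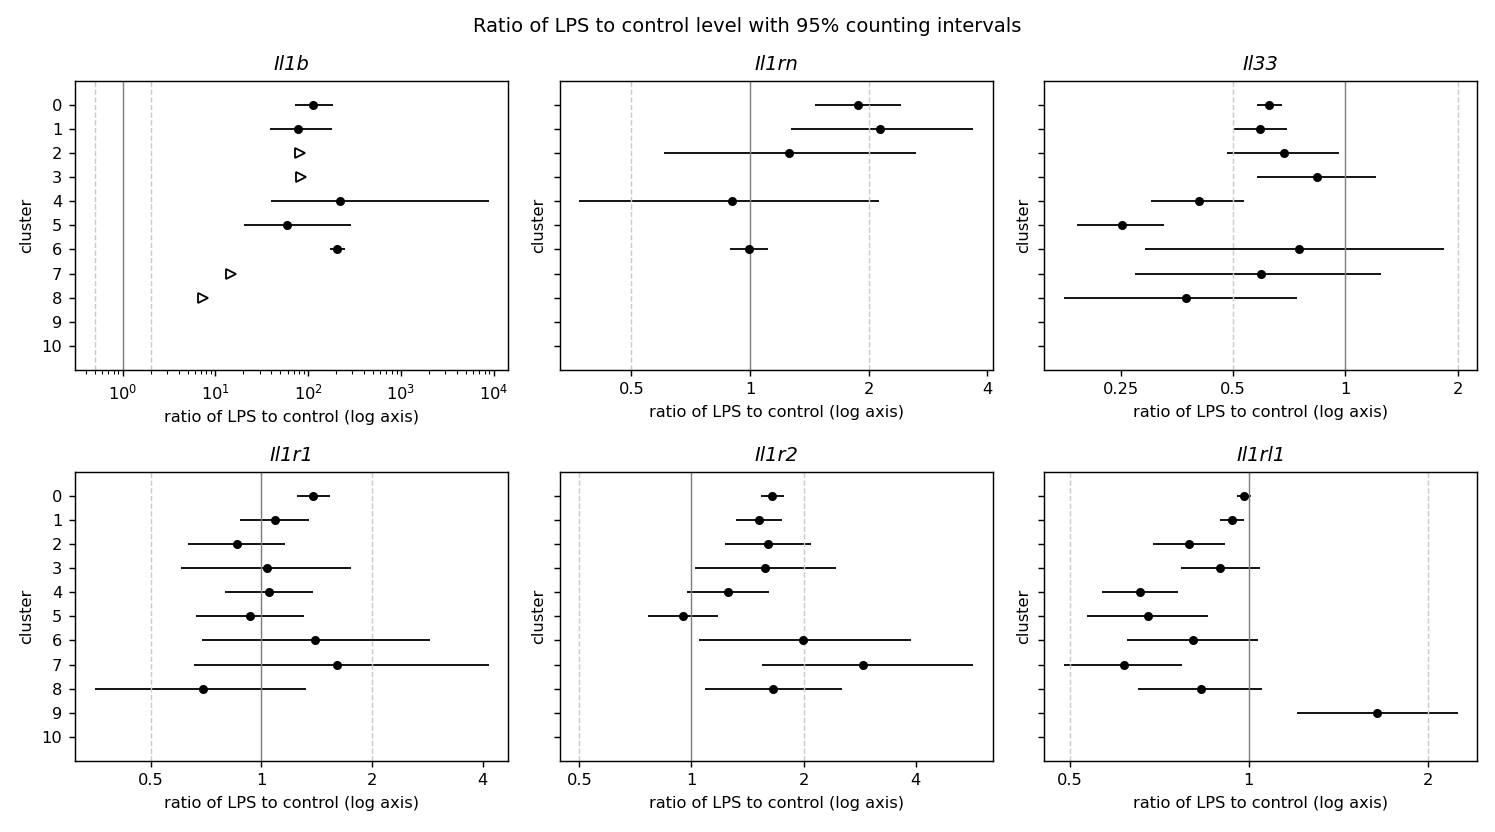
Ratio of the LPS to the control level (log axis, scale differs between panels) of 6 of the genes in each cluster with at least 20 UMIs over both libraries, with 95% counting intervals; open triangles are the ratio to the limit of 3 UMIs where the control had none, and dashed lines mark 2-fold. *Il1b* lies to the right of 1 in 9 of 9 clusters and *Il33* to the left in 9 of 9, with intervals that leave out 1 in 6 of them. Outside cluster 6, *Il1b* reached 20 UMIs only through the LPS library. In clusters 7 and 8, *Il33* reached 20 UMIs only through the control library. The median log2 ratio of all genes was below 0 in each of the 9 clusters of *Il33* as well.

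*Il33* ran the other way. It had 3130 UMIs without and 1505 with LPS. The fibroblast clusters 0, 1 and 7 held 77.6% (76.1 to 79.02) of the control UMIs, near their 76.0% of all UMIs, and cluster 5 held 8.66% (7.70 to 9.70) against 2.78%. The *Il33* level was lower with LPS in all 9 clusters with enough UMIs, with an interval below 1 in 6. Clusters 7 and 8 had enough only through the control library, so the count of clusters is not independent of the minimum. The median log2 ratio of all genes tested was also below 0 in each of these 9 clusters. In macrophages it was -0.34, near the -0.38 of *Il33*. Cluster 5, the smaller endothelial class, had the highest control level, 63.8 CPM (56.4 to 71.8), which was 2.08-fold (1.46 to 3.07) that of cluster 8. With LPS cluster 5 stood at 16.0 CPM (12.6 to 20.2), a ratio of 0.252 (0.192 to 0.327), and no longer differed from cluster 0 beyond counting error. After thinning, 15.1% (11.6 to 19.3) of control and 4.82% (3.01 to 7.27) of LPS cells of cluster 5 had a UMI, 41.7% and 13.8% without thinning. For comparison, in macrophages 0.712% (0.0863 to 2.55) of control and 1.03% (0.214 to 2.99) of LPS cells had one after thinning, 3.56% and 2.75% without. The median depth was 10171.5 and 8998 UMIs per cell in cluster 5.

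The other endothelial class and the fibroblasts had smaller differences. In cluster 4, *Il33* went from 17.3 (14.9 to 19.9) to 6.99 CPM (5.42 to 8.86), a ratio of 0.405 (0.302 to 0.536), and 1 LPS cell held 18 of its 68 UMIs (26.5%). In cluster 0 it went from 1971 to 1005 UMIs and from 21.8 (20.8 to 22.8) to 13.6 CPM (12.8 to 14.5), a ratio of 0.626 (0.579 to 0.675). Cluster 1 was alike, with 18.2 and 10.7 CPM and a ratio of 0.591 (0.4996 to 0.697). The intervals of clusters 0 and 5 do not overlap: the log2 ratio was 1.31 lower in cluster 5, a difference that was not tested for lack of replicates. In cluster 8 the mesothelial marker list stood at 504 and 529 CPM, against 23.0 and 17.4 CPM in cluster 0. Of this, *Msln* gave 431 and 466 CPM and *Wt1* 70.2 and 58.1 CPM, while *Upk3b*, *Krt19* and *Lrrn4* were each at most 4.76 CPM. *Il33* went there from 34 to 12 UMIs, a ratio of 0.374 (0.176 to 0.740), but thinning moved its log2 ratio from -1.38 to -0.21. In cluster 3 the 80 and 52 UMIs gave a ratio of 0.840 (0.580 to 1.21), and in macrophages 15 and 9 UMIs gave 0.752 (0.290 to 1.83). On thinned cells the log2 ratios of these clusters were 0.13 and 0.44, above 0. In cluster 9, *Il33* had 13 UMIs in 66 control cells and 0 in 58 LPS cells, and 1 control cell held 7 of the 13 (53.8%).

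The signaling receptor gene *Il1r1* was spread over all tissue classes at a low level. The control library held 1267 of its UMIs and the LPS library 1304, and cluster 0 held 55.6% (52.8 to 58.3) and 61.0% (58.3 to 63.6) of them, near its 59.3% and 57.8% of all UMIs. The highest control levels were 23.4 CPM (15.3 to 34.3) in cluster 8 and 17.2 CPM (13.5 to 21.6) in cluster 5, which did not differ from each other beyond their intervals, and cluster 5 was 1.55-fold (1.13 to 2.11) above cluster 2. Macrophages stood at 5.46 (3.18 to 8.74) and 7.64 CPM (4.60 to 11.9), from 17 and 19 UMIs. Cluster 0 was the only 1 of 9 clusters whose interval left out 1: *Il1r1* went from 7.78 (7.22 to 8.37) to 10.8 CPM (10.0 to 11.6), a ratio of 1.39 (1.25 to 1.54). In clusters 4 and 5 the ratios were 1.05 (0.798 to 1.39) and 0.934 (0.666 to 1.31). Macrophages and cluster 7 had ratios of 1.40 (0.689 to 2.87) and 1.60 (0.656 to 4.15), no lower than that of cluster 0 but from far fewer UMIs. After thinning, 2.26% (1.91 to 2.65) of control and 2.93% (2.55 to 3.35) of LPS cells of cluster 0 had a UMI, and 1.42% (0.389 to 3.60) and 1.03% (0.214 to 2.99) of macrophages. Unthinned shares were 9.86% and 10.6% in cluster 0 and 5.69% and 5.84% in macrophages.

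The decoy receptor gene *Il1r2* had more UMIs than *Il1r1* in most classes and was higher with LPS in 7 of 9 clusters, counting those whose interval lay above 1. Clusters 6 and 7, which are among these, had 20 UMIs only through the LPS library. The count of clusters is therefore not independent of the minimum. In cluster 0 it went from 1290 to 1733 UMIs and from 14.3 (13.5 to 15.1) to 23.5 CPM (22.4 to 24.6), a ratio of 1.65 (1.53 to 1.77). Clusters 1, 2 and 3 had like ratios of 1.52 (1.32 to 1.75), 1.60 (1.23 to 2.10) and 1.58 (1.02 to 2.44). The endothelial clusters had intervals that held 1. In cluster 4 the ratio was 1.26 (0.975 to 1.62), which overlaps the intervals above, and in cluster 5, which had the highest control level, *Il1r2* stood at 41.2 (35.3 to 47.7) and 39.1 CPM (33.6 to 45.3), a ratio of 0.9498 (0.767 to 1.18). Cluster 8 went from 35.1 (24.9 to 48.0) to 58.1 CPM (44.4 to 74.6) and, with LPS, was 1.49-fold (1.09 to 2.00) above cluster 5. The largest ratio, 2.88 (1.54 to 5.71), was in cluster 7 from 14 and 42 UMIs, and on thinned cells its log2 ratio was 0.61 instead of 1.49. In macrophages *Il1r2* went from 17 to 27 UMIs, a ratio of 1.99 (1.05 to 3.89).

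Because *Il1r2* differed more than *Il1r1*, there were 1.71 (1.59 to 1.83) decoy UMIs per *Il1r1* UMI over all control cells and 2.17 (2.03 to 2.32) over all LPS cells. The ratio went from 1.83 to 2.18 in cluster 0, from 0.942 (0.708 to 1.25) to 1.76 (1.33 to 2.35) in cluster 2 and from 1.5 (0.890 to 2.57) to 3.59 (2.07 to 6.55) in cluster 8, and was 2.40 and 2.44 in cluster 5. In cluster 8, with 26 and 17 *Il1r1* UMIs, thinning moved the log2 ratio of *Il1r2* from 0.72 to 0.13 and that of *Il1r1* from -0.52 to 0.64. After thinning, 4.03% (3.57 to 4.53) of control and 6.58% (6.01 to 7.18) of LPS cells of cluster 0 had an *Il1r2* UMI, against 1.44% (0.744 to 2.49) and 2.05% (1.24 to 3.19) of the cells of cluster 3. Without thinning these were 17% and 20.9% in cluster 0 and 4.78% and 4.74% in cluster 3. The median cell of cluster 0 had 12968 and 9821.5 UMIs. Neutrophils are known for abundant *Il1r2*. Of 6 neutrophil markers, *Mmp8* and *Cxcr2* were at 0 in all clusters, *Csf3r* was at most 0.514 CPM, and *Lcn2* made up nearly all of the summed level, which lay between 592 and 1503 CPM in the control clusters 0 to 8 and between 648 and 1838 CPM with LPS. *S100a8* was highest in macrophages, at 11.2 CPM in the control and 20.5 CPM with LPS, and *S100a9* in cluster 5, at 4.94 and 12.96 CPM. The part of neutrophils in the *Il1r2* values was not tested.

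The shared accessory chain gene *Il1rap* had the fewest UMIs of the receptor genes. It had 228 control and 197 LPS UMIs, 1.49 (1.31 to 1.70) and 1.54 CPM (1.34 to 1.78), and a ratio of 1.03 (0.850 to 1.26). Intervals held 1 in all 4 clusters with at least 20 UMIs. Cluster 0 stood at 1.54 (1.29 to 1.81) and 1.41 CPM (1.15 to 1.71) and cluster 4 at 1.98 (1.24 to 2.99) and 3.08 CPM (2.08 to 4.399). With LPS the interval of cluster 4 thus lay above that of cluster 0, although direct neighbours in the order of clusters did not differ beyond their intervals. Macrophages had 1 and 2 UMIs. After thinning, 0 of 149 control and 0 of 206 LPS cells of cluster 0 with an *Il1r1* UMI also had one of *Il1rap*, which at this depth allows shares of up to 2.45% and 1.77%, while 0.558% and 0.396% of the cells without *Il1r1* had one.

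*Il1rl1*, which encodes the IL-33 receptor ST2 and its soluble form, had the most UMIs of the family in the control, 17860, and 13975 in the LPS library. Fibroblasts held them: clusters 0, 1 and 7 had 88.7% (88.2 to 89.2) of the UMIs without and 90.1% (89.6 to 90.6) of those with LPS, against 76.0% and 74.8% of all UMIs. In cluster 0 the level was 127.5 CPM (125.2 to 129.9) in the control and 125.2 CPM (123 to 128) with LPS, a ratio of 0.982 (0.955 to 1.01), and its log2 ratio of -0.03 becomes 0.14 with median-of-ratios size factors. Cluster 1 stood higher, at 171 (166 to 176) and 160.4 CPM (155 to 166), a ratio of 0.938 (0.896 to 0.983) that becomes 0.01 on the log2 scale with median-of-ratios size factors. In these classes the receptor gene thus differed little between the libraries, while its ligand gene *Il33* was lower with LPS. *Il1rl1* per *Il33* UMI was 5.85 (5.58 to 6.14) in cluster 0 of the control and 9.19 (8.61 to 9.81) with LPS. After thinning, 23.5% (22.5 to 24.5) of control and 22.8% (21.8 to 23.8) of LPS cells of cluster 0 had an *Il1rl1* UMI, and 9.96% (6.72 to 14.1) and 7.24% (4.54 to 10.9) of macrophages. Unthinned shares were 55.0% and 45.7% in cluster 0 and 28.5% and 19.9% in macrophages.

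Ligand and receptor transcripts were found in the same fibroblasts about as often as in fibroblasts at large. Of the 373 control cells of cluster 0 with an *Il33* UMI after thinning, 24.9% (20.6 to 29.6) also had one of *Il1rl1*, against 23.4% (22.3 to 24.5) of the rest, and with LPS it was 20.7% (15.6 to 26.7) of 222 against 22.9% (21.9 to 23.9).

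*Il1rl1* was lower with LPS in several smaller classes, among them the fibroblasts of cluster 7. The ratio was 0.657 (0.567 to 0.761) in cluster 4, 0.677 (0.535 to 0.854) in cluster 5, 0.794 (0.691 to 0.912) in cluster 2 and 0.616 (0.489 to 0.774) in cluster 7. On thinned cells the log2 ratio of cluster 4 was -0.12 instead of -0.60. Relative to cluster 0 the control level was 35.7% in cluster 4, 32.8% in cluster 5, 41.6% in cluster 2 and 41.0% in macrophages, while the 8 fibroblast markers, summed, stood at 28.1%, 26.4%, 47.5% and 33.4%. In the LPS library *Il1rl1* stood at 23.9%, 22.6%, 33.7% and 33.7% in these clusters and the fibroblast markers at 22.1%, 20.6%, 39.4% and 27.8%. The markers moved with the gene, and their part in its lower level was not tested. Cluster 8 differed: *Il1rl1* stood there at 114% (97.3 to 133) and 96.6% (80.5 to 115) of the cluster 0 level, with fibroblast markers at 41.3% and 36.9%.

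Mast cells and lymphocytes are other known sources of ST2. In cluster 0, 5 of 6 mast cell markers (*Cpa3*, *Cma1*, *Tpsab1*, *Tpsb2* and *Ms4a2*) were at 0 in both libraries, and *Hdc* stood at 1.29 and 1.08 CPM. Over clusters 0 to 8 the mast cell list summed to at most 2.70 CPM without and 5.71 CPM with LPS. Of the lymphocyte markers, *Cd3e*, *Cd3g* and *Cd79b* were at 0 in cluster 0 of both libraries, and the list summed to 0.320 and 0.312 CPM there, with its highest sums, 3.53 and 8.05 CPM, in macrophages. *Il7r* made up 3.21 and 8.05 CPM of these sums, while *Cd3e*, *Cd3g* and *Gata3* were at 0 in macrophages of both libraries.

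**Figure D5:**
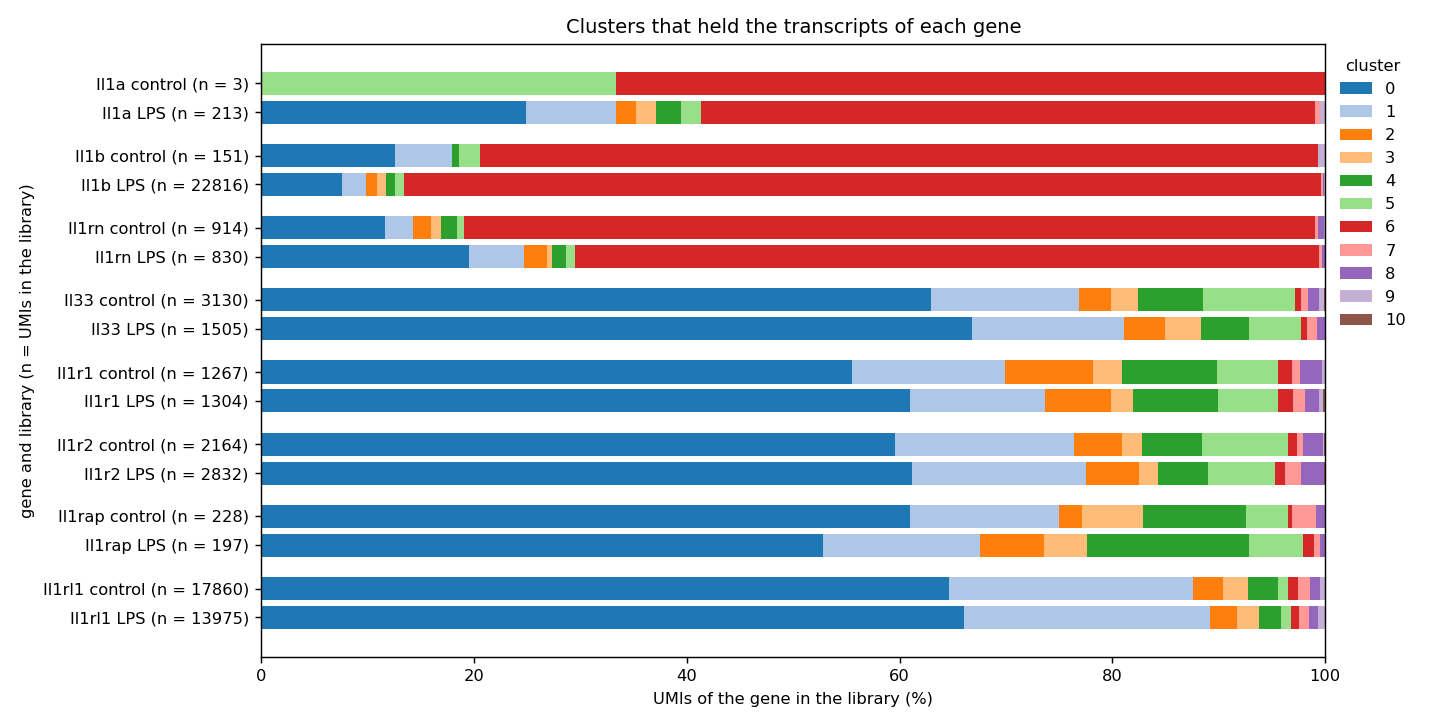
Share of each gene's UMIs (%) that each cluster held in the control and LPS library, with the number of UMIs per library beside each bar. Cluster 6 (red) holds most of *Il1a*, *Il1b* and *Il1rn*, and clusters 0 and 1 (blues) most of *Il33* and of the receptor genes.

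The cells of cluster 3 with a *Dbh* UMI, which are the nearest to the ICA cells that the study is about, held few transcripts of the family other than *Il1rl1* and, with LPS, *Il1b*. Having a *Dbh* UMI depends on depth, so these are values of cells so marked and no more. *Il1b* had 0 UMIs in 156 control cells and 28 in 121 LPS cells, 38.7 CPM (25.7 to 55.9), and the other LPS cells of the cluster stood at 35.1 CPM (30.0 to 40.8), so the intervals overlap. *Il1r1* had 8 and 3 UMIs, *Il1r2* 8 and 7, *Il33* 13 and 7, and *Il1a* 0 and 2. *Il1rl1* had 67 and 64 UMIs, or 45.8 (35.5 to 58.2) and 88.5 CPM (68.1 to 113), a ratio of 1.93 (1.35 to 2.76), where the other cells of the cluster gave 0.760 (0.640 to 0.901). Macrophage markers had 36 and 4 UMIs in the cells with *Dbh*. In all control cells of cluster 3 the 8 fibroblast markers, summed, stood at 3809 CPM and *Il1rl1* at 59.1 CPM. Cluster 0 of the control had 11634 and 127.5 CPM. With LPS the values were 3435 and 52.9 CPM in cluster 3 and 10684 and 125.2 CPM in cluster 0. The fibroblast markers were not summed for the cells with *Dbh*, and the part of fibroblast RNA in their *Il1rl1* was not tested. Nor was the part of macrophage RNA in their *Il1b*, which had enough UMIs only through the LPS library.

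Of 28 other genes of the pathway, taken from a list of further ligands, receptors, signaling and maturation genes, 20 had at least 20 UMIs in cluster 0, of which 4 were past 2-fold higher and 1 lower, where 3.62% and 11.2% of all genes were. In cluster 6 it was 3 higher and 3 lower of 15 (4.7% and 15.7% of all genes), in cluster 4 it was 2 and 0 of 15 (2.95% and 6.27%), and in cluster 5 it was 3 and 0 of 15 (4.74% and 6.48%). *Nlrp3* in clusters 0 and 6 and *Il18rap* in cluster 0 reached 20 UMIs only through the LPS library. *Tab3* in cluster 0 and *Irak4* in cluster 6 did so only through the control library. Their being past 2-fold is thus not independent of that minimum. *Irak3*, a brake on the cascade, was past 2-fold higher in clusters 0, 4 and 6, from 15.1 to 49.9 CPM in cluster 0 with a ratio of 3.31 (3.11 to 3.53), and with ratios of 2.92 (2.23 to 3.84) in cluster 4 and 2.98 (2.14 to 4.19) in macrophages. *Irak2*, a kinase-like part of the same complex, was past it in these as well, with ratios of 2.16 (1.88 to 2.49), 2.27 (1.89 to 2.72) and 5.89 (4.36 to 8.08), whereas *Irak4* in macrophages went from 17.02 to 4.83 CPM, a ratio of 0.284 (0.138 to 0.538). On thinned cells the log2 ratio of *Irak4* was -0.78 instead of -1.77, within 2-fold.

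Of the 4 listed genes of IL-1β maturation and release, 1 was past 2-fold higher and 2 lower in macrophages, where 4.7% and 15.7% of all genes were. *Casp1*, the protease that cleaves the precursor, stayed within 2-fold at 36.0 and 24.1 CPM, a ratio of 0.671 (0.482 to 0.927). *Nlrp3*, the sensor of the inflammasome, went from 5.78 to 135 CPM, a ratio of 23.3 (14.5 to 39.8). *Pycard*, its adaptor, went from 103 to 18.9 CPM, a ratio of 0.183 (0.132 to 0.249), and *Gsdmd*, which forms the pores through which IL-1β can leave the cell, from 32.4 to 14.5 CPM, a ratio of 0.447 (0.296 to 0.659). With median-of-ratios size factors or TMM factors the log2 ratio of *Gsdmd* was -0.80 or -0.83 instead of -1.15, within 2-fold. In cluster 0, *Nlrp3* had 5 and 27 UMIs, *Il18rap* (a chain of the IL-18 receptor) 17 and 107, a ratio of 7.72 (4.60 to 13.7), and *Tab3* 22 and 8 with an interval that held 1 (0.172 to 1.04). The part of macrophage RNA in the *Nlrp3* of cluster 0 was not tested.

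Over 20 points, 10 clusters in each of the 2 libraries, log2(CPM + 1) of *Il1b* was most like that of the chemokine genes *Ccl4* (Pearson r = 0.98), *Ccl3* (0.97) and *Cxcl2* (0.97). *Il1a* was most like *Slc7a2* (0.95), *Slamf1* (0.91) and *Csf2* (0.91), and *Il1rn* most like *AABR07035650.1* (0.98), *Cd37* (0.98) and *LOC24906* (0.98). *Il1rl1* went with the matrix genes *Loxl1* (0.93), *Lox* (0.92) and *Prelp* (0.90), and *Il1r2* with *Cfap53* (0.88), *Kctd14* (0.88) and *Igf2bp1* (0.87). For *Il33* the genes were *Kat6b* (0.92), *Gstz1* (0.91) and *Cep162* (0.89), for *Il1r1* *Tnfaip8l3* (0.80), *Trpv4* (0.77) and *Orc2* (0.77), and for *Il1rap* *Spaca6* (0.86), *Knop1* (0.85) and *Eme2* (0.85). Within the family, *Il1a* and *Il1b* had r = 0.86, *Il1r1* and *Il1r2* 0.67, and *Il1b* and *Il33* -0.58. The points share 2 libraries, their depth and the clusters' own defining genes, so these values are descriptions.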

How the data were processed

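The authors deposited raw counts of UMIs per gene and cell, with a cluster number and cell type for each, for 1 control and 1 LPS library (Chromium 3′ v2; Cell Ranger 2.2.0 and Seurat 2.3.4 per the submitters' processing notes). They joined both libraries with RunCCA and clustered with FindClusters at a resolution of 0.5. The genome build of the counts is not given in the sources used here, and promoters (GRCr8) were matched by symbol. Cells without a cluster (2 control, 8 LPS) were left out. No doublet caller was run. As a stand-in, the deepest 8% of cells were dropped in an alternative.

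UMIs were summed per cluster and library (Python 3.11.15, scipy 1.17.1, pandas 2.3.3). Levels have exact Poisson, shares Clopper-Pearson and ratios exact conditional intervals, all at 95%, and where no UMI was counted the limit was set at 3 UMIs. Log2 ratios had 0.5 UMI added to each sum. Genes with at least 20 UMIs in a cluster over both libraries were counted as past 2-fold. Thinning drew 3000 UMIs per cell without replacement. Likeness used clusters with at least 50 cells and genes with at least 50 UMIs. TMM factors came from edgeR 4.0.16 on summed counts, with no test. Leaving out shared barcodes was chosen after seeing the data. All 8 members were named, and of 28 other pathway genes those past 2-fold in cluster 0, 4 or 6. Members, lists and alternatives were chosen with earlier results of these data known. The procedure was tested on simulated sums that held counting error only, so that test does not cover variation between cells or libraries.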

Additional observations from a re-analysis of the deposited data

Results flagged for a closer look

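*Il1rl1* was looked at again because its log2 ratio of LPS to control was 0.72 in cluster 9, with an interval above 0, and -0.09 in cluster 1, -0.33 in cluster 2, -0.6 in cluster 4, -0.56 in cluster 5 and -0.7 in cluster 7, each with an interval below 0. The difference between the clusters was not tested, since each condition has 1 library. Cluster 9 is small, with 66 control and 58 LPS cells, and 14.0% and 12.6% of the UMIs of its median cell were mitochondrial. Its level was 188.9 CPM (151 to 234) in the control and 311 CPM (249 to 384) with LPS, from 85 and 87 UMIs. In the LPS library 3 cells with at least 10 UMIs each held 46 of the 87, and the 5 cells with the most UMIs of all genes held 47 (54.0%). In the control 2 cells with at least 10 UMIs each held 29 of the 85, and the 6 deepest cells held 19 (22.4%). Without these deepest cells the levels were 184 and 175 CPM. The 8 fibroblast markers, summed, stood at 148% of the cluster 0 level in the control and 136% in the LPS library of cluster 9, where *Il1rl1* stood at 148% and 249%.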

How the results depend on the processing

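Of 599 alternative values of the log2 ratios of single genes, 563 stayed within the interval of the value as reported and 34 moved beyond it without turning a ratio whose interval left out 1. The other 2 turned such a ratio. *Il1rl1* in cluster 1 was 0.0062 with median-of-ratios size factors instead of -0.09, and in cluster 9 it was -0.066 instead of 0.72 without the 8% of cells with the most UMIs. With median-of-ratios size factors, TMM factors and the mean of the cells' own CPM, in that order, *Il1b* in macrophages was 8.04, 8.01 and 7.38. With the first and second of these, *Il1rn* in macrophages was 0.34 and 0.31, *Il1r2* in cluster 0 was 0.88 and 0.86, *Il1rl1* in cluster 0 was 0.14 and 0.11, and *Il33* in cluster 0 was -0.51 and -0.54, with -0.82 after thinning. *Il1r1* in cluster 0 was 0.63 with size factors, and *Il33* in cluster 5 was -1.61 with both endothelial clusters joined. Ratios whose interval held 1 also changed sign in places: *Il1rl1* in cluster 0 was positive in 4 of 9 alternatives and *Il1rn* in macrophages in 5 of 8, and *Il33* in clusters 3 and 6, *Il1r2* in cluster 5 and *Il1r1* in clusters 3, 4, 5, 6 and 8 crossed 0. Leaving out shared barcodes, cells over 20% mitochondrial UMIs or, outside cluster 6, cells with 3 or more macrophage marker UMIs moved none of 70 values each. The marker cut took out at most 18 cells of any cluster and library.

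Shares of cells followed the depth of thinning. At 1500 UMIs and without thinning, in that order, *Il1rn* was found in 25.6% and 59.8% of control and 24.4% and 57.4% of LPS macrophages, and *Il1rl1* in 14.0% and 55.0% of control and 13.8% and 45.7% of LPS cells of cluster 0. *Il1b* was found in 2.85% and 17.4% of control macrophages and, at 1500 UMIs, in 92.4% of LPS macrophages. *Il33* in cluster 5 was found in 41.7% of control cells without thinning and in 1.13% and 13.8% of LPS cells. The percentage of all genes past the fold with a minimum of 1 UMI, at 1.5-fold and at 4-fold was 25.5%, 29.7% and 3.25% in cluster 0, 27%, 26.3% and 2.22% in cluster 5, and 35.3%, 42.9% and 4.3% in cluster 6.

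No paired analysis was possible because the control and LPS arms hold 1 library apiece. The sums rest on UMIs of single libraries, so handling, dissociation and treatment cannot be told apart. Genes with under 20 UMIs in a cluster, among them *Il1a* outside clusters 0 and 6, were not counted as past the fold, and many of their intervals are wide.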
